A study of Mus musculus with 38 samples.

Results

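Borderline lesions (BL) are *BRAF*(+) mouse thyroids in which the histology showed altered nuclei without a developed carcinoma. Among the 38 mice of the series, 10 had BL, and these were split by 4 genes of thyroid function. The score of a mouse was the mean log2 array signal of *Slc5a5*, *Slc5a8*, *Dio1* and *Tshr*. The 5 mice with the lowest score form the low-score BL group and the 5 with the highest score form the high-score BL group. The groups were therefore selected on measured values of these 4 genes, and every difference between them in the same 10 arrays is a description to which no test was applied. The other 28 mice, which took no part in the split, were used for tests.

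All 10 BL mice carried the human *BRAF*V600E cDNA driven by a bovine thyroglobulin promoter, which restricts it to thyroid follicular cells, on the FVB/N background. Low-score BL comprised M_530, M_360, M_414, M_527 and M_528, all females, aged 10, 11, 13, 10 and 10 months. High-score BL comprised 2 males, M_80 and M_772, aged 11 and 4 months, and 3 females, M_649, M_416 and M_1005, aged 10, 13 and 21 months. Mean age was 10.8 months in low-score BL and 11.8 months in high-score BL (two-sided exact permutation test over 252 arrangements, p = 0.746). Low-score BL held 0 males and high-score BL 2 males (two-sided Fisher's exact test, p = 0.444, the smallest p that 2 males among 10 mice can give in this split). M_527, M_528 and M_530 have neighbouring numbers, the same sex and the same age, and all 3 were low-score mice. Whether they were littermates is not given in the labels. Ages are those of the labels, whereas the cohort description of the study gives a lower highest age for BL and places more BL mice in its oldest age class. The age difference changes sign without M_1005. By that description most BL mice came from a single transgenic line. The rest, among them the only BL mouse of its youngest age class, came from another. By the ages of the labels, M_772 of high-score BL is the only BL mouse of that class. The labels do not give the line of each mouse, and the part of line was not tested. The comparison mice were 10 *BRAF*(+) papillary thyroid carcinomas (PTC), asymptomatic thyroids (AT; 5 *BRAF*(+) and 5 *BRAF*(-)) and benign hyperplastic lesions (BHL; 4 *BRAF*(+) and 4 *BRAF*(-)), from females and males of 4 to 24 months. *BRAF*(-) means that the transcript of the transgene was absent, and a BHL *BRAF*(-) mouse had been genotyped as transgenic. The thyroids were cut so that RNA and histology came from different pieces of a gland, and the lesion was thus diagnosed on tissue other than that on the array. Each mouse gave 1 array (Mouse Gene 1.0 ST), with array medians of 6.00 to 6.15 log2 units and correlations between arrays of 0.944 to 0.991.

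As background, the sodium iodide symporter encoded by *Slc5a5* brings iodide into the follicular cell, *Slc5a8* encodes a monocarboxylate transporter of the same solute carrier family in the apical membrane, *Dio1* encodes the deiodinase that converts thyroxine into triiodothyronine, and *Tshr* encodes the receptor through which thyrotropin raises cAMP and drives most of these functions. BRAFV600E keeps the MAPK pathway active without an upstream signal. In thyroid carcinomas with this mutation, the genes of iodide handling are typically low and the feedback genes of the MAPK pathway high.

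The promoters of the 3 score genes that differed most are shown because these genes define the split, together with those of *Thbs4* and *Ucp1*, the genes at either end of the comparison. Each runs 5′ to 3′ on the strand of the gene and covers 300 bases around the RefSeq start in the GRCm38.p6 build. The *Slc5a5* window lies at chr8:70892708-70893007, minus strand, that of *Slc5a8* at chr10:88885742-88886041, plus strand, that of *Dio1* at chr4:107307119-107307418, minus strand, that of *Thbs4* at chr13:92794769-92795068, minus strand and that of *Ucp1* at chr8:83290098-83290397, plus strand. Capitals mark matches, on either strand, to 4 short motifs, namely TGANTCA (AP-1), TGACGTCA (the cAMP response element), CAAGTG (the core bound by NKX2-1) and AGGTCA (a nuclear receptor site).
Slc5a5: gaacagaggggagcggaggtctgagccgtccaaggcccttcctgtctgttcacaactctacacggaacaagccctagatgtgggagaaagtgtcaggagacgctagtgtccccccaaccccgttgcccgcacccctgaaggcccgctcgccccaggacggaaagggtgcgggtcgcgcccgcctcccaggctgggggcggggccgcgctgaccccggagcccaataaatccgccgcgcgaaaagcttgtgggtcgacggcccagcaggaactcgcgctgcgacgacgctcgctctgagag
Slc5a8: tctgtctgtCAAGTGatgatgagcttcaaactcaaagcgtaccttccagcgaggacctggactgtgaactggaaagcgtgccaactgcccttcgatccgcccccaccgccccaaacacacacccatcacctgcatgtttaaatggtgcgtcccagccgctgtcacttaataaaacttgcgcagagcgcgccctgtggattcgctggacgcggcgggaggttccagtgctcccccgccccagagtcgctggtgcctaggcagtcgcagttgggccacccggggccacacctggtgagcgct
Dio1: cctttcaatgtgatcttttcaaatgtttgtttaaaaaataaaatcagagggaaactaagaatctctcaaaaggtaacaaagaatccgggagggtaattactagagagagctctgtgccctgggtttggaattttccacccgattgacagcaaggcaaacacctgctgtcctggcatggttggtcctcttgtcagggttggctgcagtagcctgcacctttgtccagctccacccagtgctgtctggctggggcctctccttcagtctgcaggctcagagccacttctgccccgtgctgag
Thbs4: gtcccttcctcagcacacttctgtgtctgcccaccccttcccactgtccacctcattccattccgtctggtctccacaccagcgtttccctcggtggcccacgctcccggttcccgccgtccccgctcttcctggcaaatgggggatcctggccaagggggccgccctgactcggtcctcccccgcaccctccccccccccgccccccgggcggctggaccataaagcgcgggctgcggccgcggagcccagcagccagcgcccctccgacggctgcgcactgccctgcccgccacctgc
Ucp1: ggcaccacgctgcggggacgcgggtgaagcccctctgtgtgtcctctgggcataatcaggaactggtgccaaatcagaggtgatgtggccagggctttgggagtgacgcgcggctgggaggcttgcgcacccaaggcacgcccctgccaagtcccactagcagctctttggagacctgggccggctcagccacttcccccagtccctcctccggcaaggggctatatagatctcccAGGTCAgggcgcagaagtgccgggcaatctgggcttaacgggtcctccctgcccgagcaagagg
*Slc5a8* had 1 match to the NKX2-1 core and *Ucp1* had 1 match to the nuclear receptor site, and the other windows held no match to the 4 motifs. A match describes the letters only. Among the genes with 1 symbol and a RefSeq promoter, CAAGTG occurred in 9 of 72 genes that were higher in low-score BL and in 17 of 89 that were lower (both by at least 2-fold without overlap, as defined below), or 12.5% and 19.1%, against 12.4% of 15611 measured genes. TGANTCA occurred in 5.56% and 5.62% of the same sets, against 6.98% of all, TGACGTCA in 1.39% and 2.25%, against 2.49%, and AGGTCA in 18.1% and 13.5%, against 13.9%.

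The score ran from 7.90 to 9.05 in low-score BL (7.90, 8.25, 8.52, 8.77 and 9.05) and from 10.11 to 10.61 in high-score BL (10.11, 10.17, 10.55, 10.60 and 10.61). Values of single mice are given in this order throughout, M_530, M_360, M_414, M_527 and M_528, then M_80, M_772, M_649, M_416 and M_1005. The mice at the boundary were M_528 with 9.05 and M_80 with 10.11, which left 1.06 log2 units without a mouse. The mean was 8.50 ± 0.45 in low-score BL and 10.41 ± 0.24 in high-score BL (SD, n = 5 each). For comparison, the score averaged 9.03 ± 0.68 in PTC (n = 10), 8.56 ± 0.89 in BHL *BRAF*(+) (n = 4), 10.03 ± 0.76 in AT *BRAF*(+) (n = 5), 10.50 ± 0.40 in BHL *BRAF*(-) (n = 4) and 10.65 ± 0.33 in AT *BRAF*(-) (n = 5). By mean, low-score BL thus lay beside BHL *BRAF*(+) and PTC, and high-score BL between AT *BRAF*(+) and the *BRAF*(-) thyroids. All high-score BL values also lay within the range of AT *BRAF*(+), 9.20 to 10.90. The rule set the BL groups apart on this score, so their places on it are not a separate result.

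**Figure D1:**
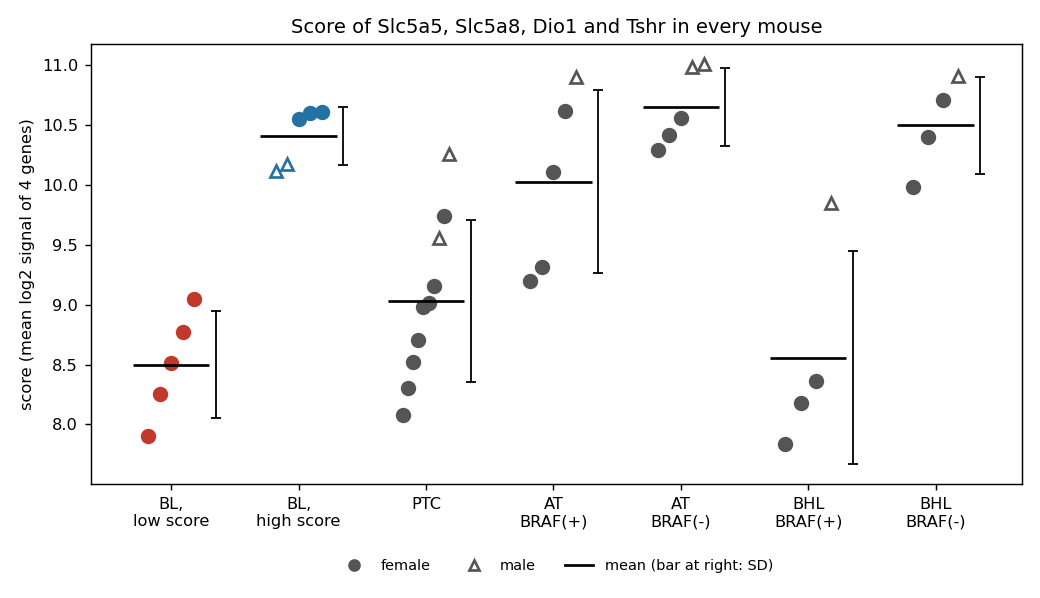
Score (mean log2 signal of *Slc5a5*, *Slc5a8*, *Dio1* and *Tshr*, vertical axis) of every mouse, by group. Circles are females, open triangles males, horizontal lines group means and error bars SD. The low-score BL mice end at 9.05 and the high-score BL mice begin at 10.11, and the males lie at or near the top of every other group.

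Of the score genes, *Dio1* differed most, with log2 signals of 7.27, 7.93, 8.13, 8.74 and 8.61 in low-score BL and 10.72, 10.63, 10.94, 11.05 and 10.99 in high-score BL. *Slc5a8* had 6.92, 7.70, 7.51, 7.66 and 7.61 in low-score BL and 9.30, 9.47, 10.13, 10.02 and 9.83 in high-score BL. *Slc5a5* had 8.65, 8.69, 9.03, 9.58 and 10.18 in low-score BL and 10.75, 11.04, 11.25, 11.26 and 11.21 in high-score BL. The 3 genes did not overlap between the groups and were 6.62-fold, 4.82-fold and 3.67-fold lower in low-score BL. *Tshr* overlapped, with 8.77, 8.69, 9.39, 9.11 and 9.81 in low-score BL and 9.69, 9.57, 9.89, 10.08 and 10.41 in high-score BL, a difference of -0.78 ± 0.25 (SE). The same mice formed the groups when any 1 of the 4 genes was dropped from the score. These values chose the groups and support nothing beyond that choice.

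Most other genes of thyroid hormone synthesis overlapped between the groups. Of 11 measured genes of the thyroid differentiation score other than those above, 0 were higher and 3 lower in low-score BL without overlap, with a median log2 difference of -0.13, against a median of 0.00 over all 19934 other genes. Across all of these genes, values did not overlap for 597 genes that were higher (2.99%) and 831 that were lower (4.17%) in low-score BL. Such genes are called separated below, and 97 of the higher ones (0.487%) and 118 of the lower ones (0.592%) were also at least 2-fold apart. *Duox2*, the oxidase that supplies hydrogen peroxide for iodination, had 7.34, 7.57, 7.16, 7.78 and 7.47 in low-score BL and 8.34, 8.54, 8.70, 8.48 and 8.48 in high-score BL, a 2.06-fold difference. *Tg*, which encodes the thyroglobulin on which hormone is made, stayed among the strongest signals of the array, with 13.30 to 13.59 in low-score BL and 13.65 to 13.73 in high-score BL. *Thra*, a thyroid hormone receptor, differed by -0.31 ± 0.08. Outside that list, *Iyd*, which recovers iodide from iodotyrosines, averaged 10.64 ± 0.26 in low-score BL and 11.28 ± 0.15 in high-score BL. It was the 1 separated gene among 14 measured genes of iodination and hormone release, whose median was 0.06. *Duoxa1*, the maturation factor of a DUOX oxidase, overlapped with a difference of the opposite sign, 0.59 ± 0.36.

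The follicular epithelium itself was present in both groups. *Epcam* averaged 9.94 ± 0.31 in low-score BL and 9.85 ± 0.16 in high-score BL, and *Cdh1* 10.35 ± 0.13 and 10.28 ± 0.09 in the same order of groups. Both encode epithelial adhesion proteins and both overlapped. Of 14 follicular epithelial genes, 0 were separated higher and 2 separated lower, *Krt7* (9.46 ± 0.17 in low-score BL and 10.49 ± 0.23 in high-score BL) and *Cdh16* (9.47 ± 0.35 and 10.27 ± 0.19), with a median difference of 0.13 over the list. In bulk RNA, fewer cells of a type and less RNA per cell cannot be told apart.

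MAPK output genes ran the other way. Of 19 measured, 8 were separated higher in low-score BL and 0 lower, with a median difference of 0.48. *Spred1*, an inhibitor of RAS to RAF signalling that the pathway itself induces, had 10.18, 10.78, 11.00, 10.71 and 10.83 in low-score BL and 9.45, 9.55, 9.49, 9.40 and 10.16 in high-score BL, a 2.13-fold difference. *Ccnd1*, which encodes cyclin D1, had 11.20, 11.15, 11.08, 11.08 and 11.34 in low-score BL and 10.02, 11.04, 9.83, 9.83 and 10.40 in high-score BL. In *Ccnd1* the 4-month-old male M_772 was the high-score mouse closest to the low-score mice. The ETS factors *Etv1* and *Etv5*, both transcriptional targets of ERK, were higher by 0.77 ± 0.20 and 0.52 ± 0.15. The feedback inhibitors *Spry2* and *Spred2* were higher by 0.53 ± 0.12 and 0.39 ± 0.08, the ephrin receptor *Epha4* by 0.89 ± 0.19, and the AP-1 component *Fosl1* by 0.36 ± 0.08 at a low signal of 5.41 in low-score BL and 5.05 in high-score BL. *Dusp5* and *Dusp6*, phosphatases that switch ERK off, overlapped, with differences of 0.48 ± 0.25 and 0.32 ± 0.19. *Braf* also overlapped, with 9.50, 9.99, 10.19, 9.83 and 10.19 in low-score BL and 9.59, 9.45, 9.50, 9.19 and 9.60 in high-score BL. Whether its probes read the human transgene is not given in the sources used here.

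**Figure D2:**
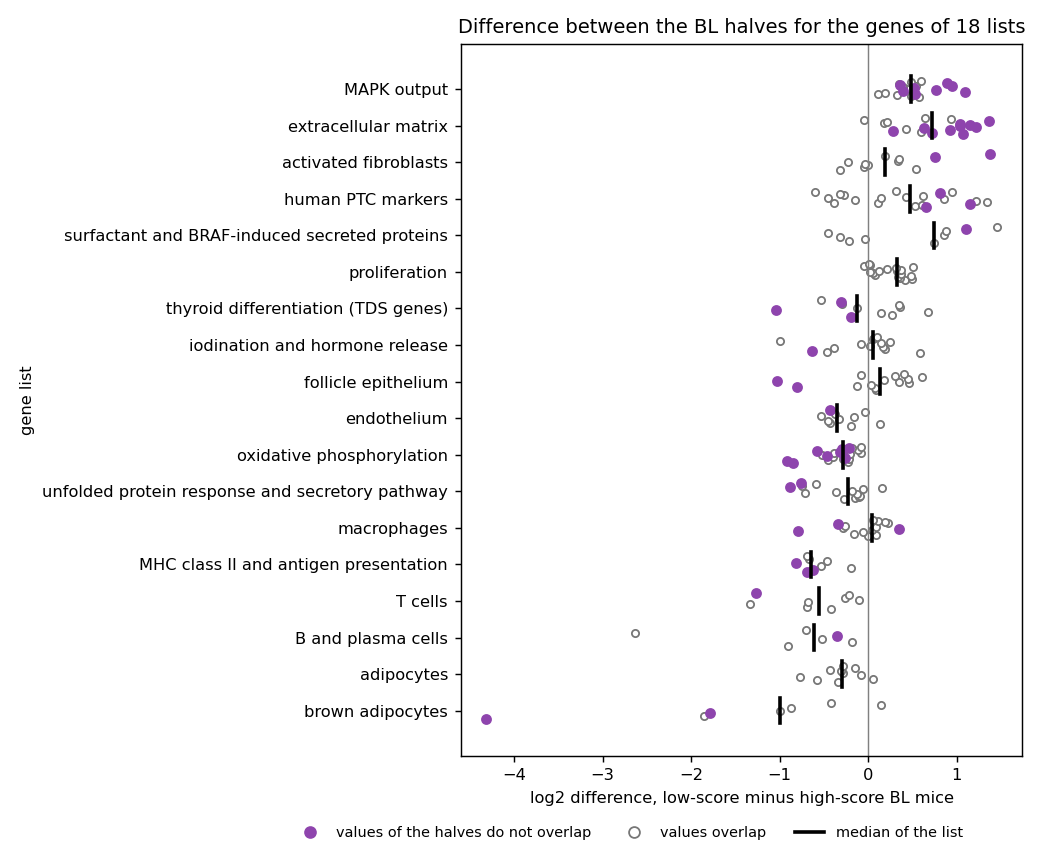
Log2 difference between low-score and high-score BL mice (horizontal axis, 5 mice each) for each gene of 18 lists. Filled points are genes whose values do not overlap between the groups, open points overlap, and black bars are list medians. MAPK output and extracellular matrix genes lie to the right of 0 with medians of 0.48 and 0.73, and brown adipocyte genes to the left with a median of -1.0.

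Both genes at the top of the comparison encode matrix proteins. *Thbs4*, a thrombospondin of the matrix, had 10.11, 10.03, 10.02, 8.78 and 9.44 in low-score BL and 5.61, 5.55, 6.70, 6.04 and 5.68 in high-score BL. The difference was 3.76 ± 0.33, or 13.6-fold. *Fmod*, the collagen-binding proteoglycan fibromodulin, had 10.24, 9.97, 9.69, 8.47 and 9.68 in low-score BL and 5.65, 6.28, 6.71, 5.94 and 6.27 in high-score BL, or 10.9-fold. In both genes M_527 was the lowest of the low-score mice and M_649 the highest of the high-score mice. The group means of *Thbs4* were 8.62 in PTC and 9.25 in BHL *BRAF*(+), and 5.89, 6.11 and 6.32 in AT *BRAF*(+), AT *BRAF*(-) and BHL *BRAF*(-). Other matrix or secreted proteins among the 12 largest were *Ltbp2*, which binds elastic microfibrils (3.56-fold), *Gpc3*, a cell surface heparan sulfate proteoglycan (3.53-fold), and *Sfrp4*, a secreted antagonist of Wnt signalling (3.50-fold). In *Gpc3* and *Sfrp4* the males M_80 and M_772 had the lowest values of the 10 mice. *Gpc3* was 6.27 and 6.34 in these males and 7.28 to 7.88 in the high-score females.

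Extracellular matrix genes were separated higher in 10 of 17 and lower in 0, with a median difference of 0.73. *Thbs2* had 9.10, 8.74, 8.98, 8.79 and 8.49 in low-score BL and 7.39, 7.53, 7.17, 7.21 and 7.94 in high-score BL. *Fn1*, fibronectin, had 11.90, 11.94, 12.20, 11.49 and 11.44 in low-score BL and 10.31, 10.73, 10.66, 10.54 and 10.99 in high-score BL. The fibrillar collagen genes *Col1a1* and *Col1a2* were higher by 1.07 ± 0.22 and 0.73 ± 0.16, *Col12a1* by 1.04 ± 0.20 and *Postn*, periostin, by 1.03 ± 0.22. *Tgfbi*, a secreted protein that TGF-beta induces, was higher by 1.48 ± 0.22 and was the 1 separated gene among 13 TGF-beta target and mesenchymal transition genes, which had a median of 0.20. Of 11 markers of activated fibroblasts, 2 were separated higher (*Pi16* and *Cthrc1*) and 0 lower, with a smaller median of 0.19. *Comp*, a cartilage and tendon matrix protein of the same family as *Thbs4*, overlapped by a narrow margin, with 8.81, 8.88, 7.93, 6.55 and 7.69 in low-score BL and 4.97, 5.26, 6.57, 5.10 and 5.15 in high-score BL. The list of cartilage genes had a median of -0.11, with 1 of 8 separated higher (*Col9a1*) and 0 lower.

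The remaining genes among the 12 largest encode membrane proteins. *Nmbr*, the receptor for neuromedin B, had 6.94, 8.99, 7.91, 8.49 and 7.89 in low-score BL and 4.92, 4.48, 5.31, 5.71 and 6.30 in high-score BL, or 6.49-fold. *Slc5a9*, a sodium-coupled sugar transporter of the family of *Slc5a5* and *Slc5a8*, went the opposite way to both, with 9.54, 9.67, 9.99, 9.89 and 10.04 in low-score BL and 7.08, 7.44, 8.29, 7.91 and 8.87 in high-score BL. The anion transporter *Slc26a9* was 4.07-fold, the adhesion receptor *Adgrg7* 4.12-fold, the neural adhesion molecule *Chl1* 3.81-fold, the transporter *Slc46a2* 3.77-fold and the potassium channel *Kcnq5* 3.77-fold higher. Human PTC markers were separated higher in 3 of 20 and lower in 0 (median 0.48), namely *Met*, *Fn1* and the calcium release channel *Itpr3*. *Itpr3* had 9.45 to 9.76 in low-score BL and 8.56 to 8.98 in high-score BL.

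The surfactant protein genes *Sftpb*, *Sftpa1* and *Sftpd*, whose mean signals in *BRAF*(+) thyroids were far above those in *BRAF*(-) thyroids, overlapped between the groups. *Sftpb* averaged 12.68 ± 0.18 in low-score BL and 11.94 ± 0.63 in high-score BL, with overlap, against 6.27 in AT *BRAF*(-). *Sftpa1* had 10.06, 10.32, 11.51, 10.82 and 10.87 in low-score BL and 12.65, 12.31, 9.63, 9.88 and 10.17 in high-score BL. In *Sftpa1* the male mice M_80 and M_772 were the highest of the 10 and the other 3 high-score mice were at the level of the low-score mice or under it. Of 9 genes of the list 1 was separated, the sialyltransferase *St8sia6*, higher by 1.10 ± 0.34, with a median of 0.74 over the list. Proliferation genes were separated in 0 of 18, with a median difference of 0.32, and *Mki67* averaged 7.06 ± 0.31 in low-score BL and 6.64 ± 0.56 in high-score BL.

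**Figure D3:**
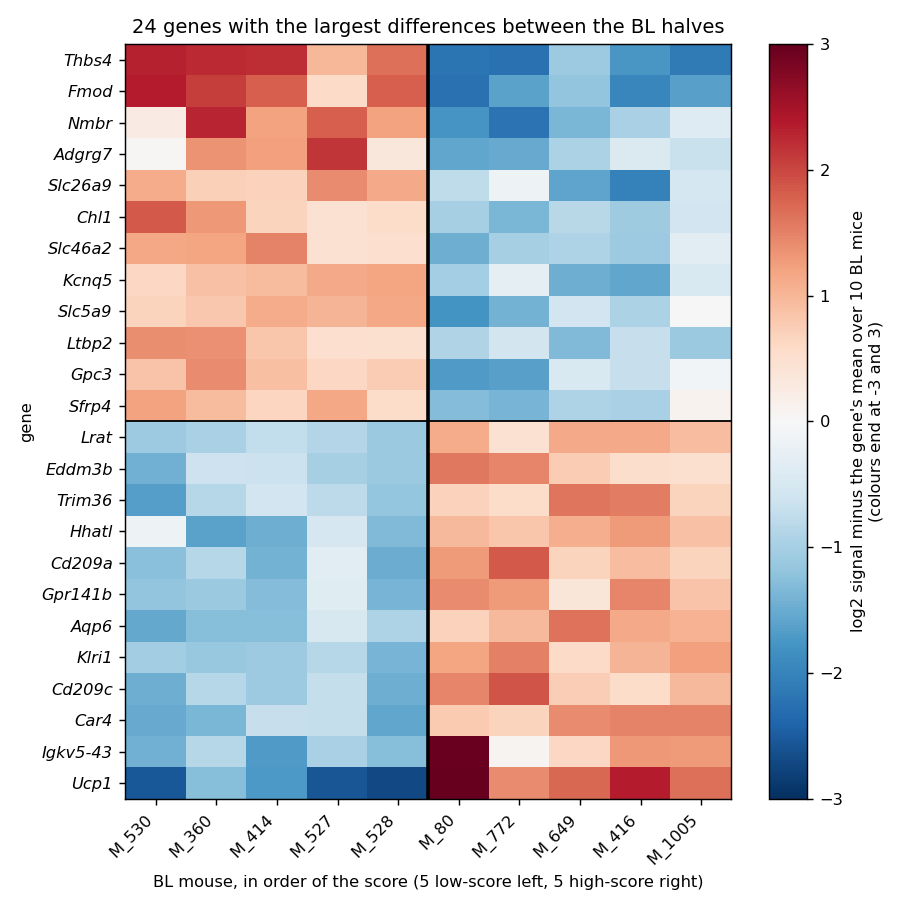
Log2 signal minus the gene's mean over the 10 BL mice (colour) for the 12 separated genes with the largest positive and the 12 with the largest negative difference. Columns are mice in order of the score, with the 5 low-score mice on the left. *Thbs4* and *Fmod* are up to 10.11 and 10.24 in low-score BL, and *Ucp1* reaches 10.56 in M_80.

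At the other end, *Ucp1*, the uncoupling protein of brown adipocytes, had 4.39, 5.66, 5.21, 4.37 and 4.24 in low-score BL and 10.56, 8.36, 8.66, 9.30 and 8.60 in high-score BL. The difference of -4.32 ± 0.49 was the largest of all 19934 genes, and *Ucp1* averaged 10.16 in AT *BRAF*(-) and 6.74 in PTC. Brown adipocyte genes were separated lower in 2 of 7 (*Ucp1* and the fatty acid elongase *Elovl3*) and higher in 0, with a median of -1.0. The list mean was 6.00 to 6.99 in low-score BL and 7.38 to 9.02 in high-score BL. General adipocyte genes overlapped in all 10 measured, and *Adipoq*, adiponectin, averaged 8.30 ± 0.93 in low-score BL and 8.64 ± 0.33 in high-score BL. No source used here says how much fat was left on each gland, and the part of adjacent fat in these values was not tested.

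A further set of lower genes belongs to leukocytes. *Cd209a*, a lectin of dendritic cells, had 8.06, 8.46, 7.91, 9.01 and 7.84 in low-score BL and 10.60, 11.16, 9.99, 10.25 and 9.99 in high-score BL, a 4.41-fold difference, and *Cd209c* of the same gene family was 4.75-fold lower. The family members are similar in sequence, so their probe sets may share signal. *Klri1*, a lectin-like receptor of natural killer cells, had 4.80, 4.73, 4.77, 4.99 and 4.46 in low-score BL and 7.05, 7.37, 6.42, 6.87 and 7.09 in high-score BL. *Gpr141b*, a receptor of unknown ligand, was 4.43-fold lower, and an immunoglobulin kappa variable segment among the 12 largest negative differences 5.67-fold lower with 7.77 in M_80 and 4.87 to 6.09 in the other high-score mice. *Cd209a* averaged 8.23 in AT *BRAF*(-), beside the 8.26 of low-score BL and under the 10.40 of high-score BL, and *Klri1* 5.12 in AT *BRAF*(-), against 4.75 in low-score BL and 6.96 in high-score BL. In AT *BRAF*(+) the means were 9.83 for *Cd209a* and 6.31 for *Klri1*, both nearer to high-score BL, so high values of these genes were not particular to high-score BL.

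Genes of MHC class II and antigen presentation were separated lower in 3 of 8 and higher in 0, with a median of -0.64. *H2-Aa* averaged 10.03 ± 0.32 in low-score BL and 10.72 ± 0.27 in high-score BL, and *Ciita*, the master regulator of class II, 6.78 ± 0.32 and 7.59 ± 0.49 in the same order. For comparison, *H2-Aa* averaged 10.67 in AT *BRAF*(+) and 9.70 in AT *BRAF*(-). T cell genes were separated lower in 1 of 8 (*Il7r*, difference -1.27 ± 0.29), with *Cd3g* overlapping, and B and plasma cell genes in 1 of 6 (*Pax5*). *Pax5* had a weak signal, with 5.14 to 5.29 in low-score BL and 5.30 to 5.37 in high-score BL apart from 6.42 in M_416. Macrophage markers did not move together, with *Cd163* and *Lyz2* separated lower, *Fcgr1* separated higher and a median of 0.04 over 15 genes. Neutrophil genes were separated in 0 of 7.

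Oxidative phosphorylation genes were separated lower in 8 of 20 and higher in 0, with a median of -0.29. *Ndufb8*, a subunit of complex I, had 8.53, 8.28, 8.07, 8.49 and 8.20 in low-score BL and 9.49, 9.22, 9.11, 9.14 and 9.18 in high-score BL, and *Cox5a* of complex IV was lower by a difference of -0.57 ± 0.11. Since brown adipocytes are rich in mitochondria, the brown adipocyte values above stand beside these, and their part was not tested. Genes of the unfolded protein response were separated lower in 2 of 14 (*Herpud1* and *Manf*), endothelial genes in 1 of 10 (*Eng*), and retinoid genes in 1 of 11, with 2 higher. The retinoid gene that was lower, *Lrat*, esterifies retinol for storage and had 5.57, 5.70, 5.94, 5.80 and 5.55 in low-score BL and 7.79, 7.14, 7.80, 7.82 and 7.61 in high-score BL.

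The other large negative differences fell on *Car4*, a membrane-bound carbonic anhydrase, *Aqp6*, an aquaporin, *Hhatl*, a relative of the Hedgehog acyltransferase, *Trim36*, a ubiquitin ligase, and *Eddm3b*. *Car4* had 5.81, 5.94, 6.63, 6.59 and 5.77 in low-score BL and 8.10, 7.98, 8.72, 8.81 and 8.80 in high-score BL, or 5.03-fold. *Aqp6* had 5.38, 5.63, 5.64, 6.43 and 5.99 in low-score BL and 7.60, 7.89, 8.53, 8.05 and 7.95 in high-score BL. *Hhatl* had 7.37, 5.91, 6.03, 7.01 and 6.17 in low-score BL and 8.48, 8.33, 8.61, 8.78 and 8.39 in high-score BL, with the 2 highest low-score values in M_530 and M_527. Among the lists not yet described, fatty acid synthesis (median -0.45), fatty acid oxidation (-0.30) and airway epithelium (-0.73) had 0 separated genes of 9, 9 and 7, and cell cycle inhibitors (-0.02) and interferon response (-0.06) 0 of 7 and 7. *Ret*, a receptor tyrosine kinase of C cells, was lower by a difference of -1.07 ± 0.19 and was the 1 separated gene among 5 measured C cell genes.

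Genes of tissues outside the follicles were high in the arrays of some mice. Whether adjacent tissue was taken with these glands was not tested. Skeletal muscle genes had a list mean of 10.40 in M_530 and 9.0 in M_527 and of 4.96 to 5.18 in the other low-score mice, against 5.02 to 5.26 in high-score BL, and 0 of 17 were separated. *Acta1*, skeletal muscle actin, reached 12.76 in M_530 and 11.28 in M_527. Parathyroid genes had a list mean of 11.55 in M_527 of low-score BL and of 10.62 in M_649 of high-score BL, with 4.97 to 5.94 in the other mice. *Pth*, parathyroid hormone, was at 12.56 in M_527 and 11.68 in M_649. Without M_527 and M_530 all 597 higher and 831 lower genes remained separated, as they must with fewer mice, and the totals were 1572 and 1592.

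**Figure D4:**
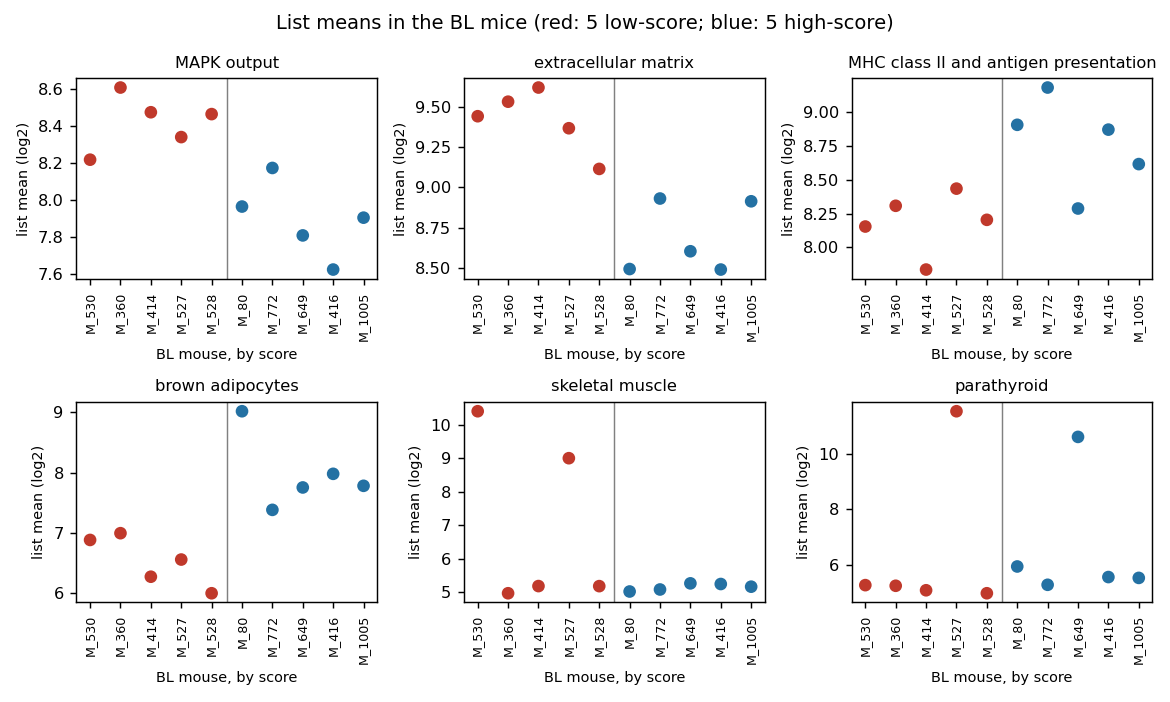
Mean log2 signal of 6 gene lists (vertical axes) in each BL mouse, in order of the score. Low-score mice are red and high-score mice blue. MAPK output and extracellular matrix means do not overlap, muscle genes are high in M_530 and M_527, and parathyroid genes in M_527 and M_649.

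Whether other genes move with the 4 score genes was tested in the 28 mice that were not used for the split. The slope is the log2 change of a gene per 1 unit of higher score within a group, so a negative slope means a higher level where the score was lower. By limma, with adjustment over 19934 genes, 598 genes had a negative slope (3%) and 724 a positive one (3.63%) at an adjusted p under 0.05. Of the 97 genes at least 2-fold higher in low-score BL, 70 had a negative slope past the threshold (72.2%) and 0 a positive one. Of the 118 at least 2-fold lower, 79 had a positive slope past the threshold (66.9%) and 0 a negative one. Among all separated genes the counts were 203 of 597 (34.0%) and 311 of 831 (37.4%). The totals depended on single mice, with 292 and 472 genes past the threshold without M_958 of BHL *BRAF*(+), 4.74% of genes with a negative slope without M_1002 of PTC, and 376 without M_700 of PTC.

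Sex and score moved together in these 28 mice. The 7 males had scores 0.72 above their group means on average (exact permutation of sex within groups over 36000 arrangements, p = 5.56e-05, adjusted p = 9.26e-05 over 5 measures). *Slc5a5* was 0.88 and *Dio1* 0.89 above the group means in males, each at the smallest p these arrangements can give (exact permutation, p = 2.78e-05). The males were 4 to 10 and the 21 females 7 to 24 months old, so sex and age overlap, and in BL both males were the lowest 2 of the high-score mice. With sex as a covariate, 30 genes had a negative slope (0.15%) and 80 a positive one (0.401%) by limma. Of the genes separated by at least 2-fold, 7 of 97 and 34 of 118 then passed the threshold (7.22% and 28.8%), none in the opposite direction. A fit to the 21 females alone, chosen after seeing the data, left 1 of 97 and 31 of 118, against 6 negative and 86 positive slopes among all 19934 genes. The median slope was -0.56 without and -0.42 with sex in the fit for the 97 genes, and 0.53 and 0.47 for the 118 genes, against 0.01 and 0.00 over all genes. *Xist*, which silences the inactive X chromosome, and the Y-linked *Eif2s3y* had the most negative and most positive slopes without sex in the fit (-3.40 and 2.76) and -0.16 and 0.10 with it, when neither passed the threshold (limma, adjusted p = 0.763 and 0.851).

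**Figure D5:**
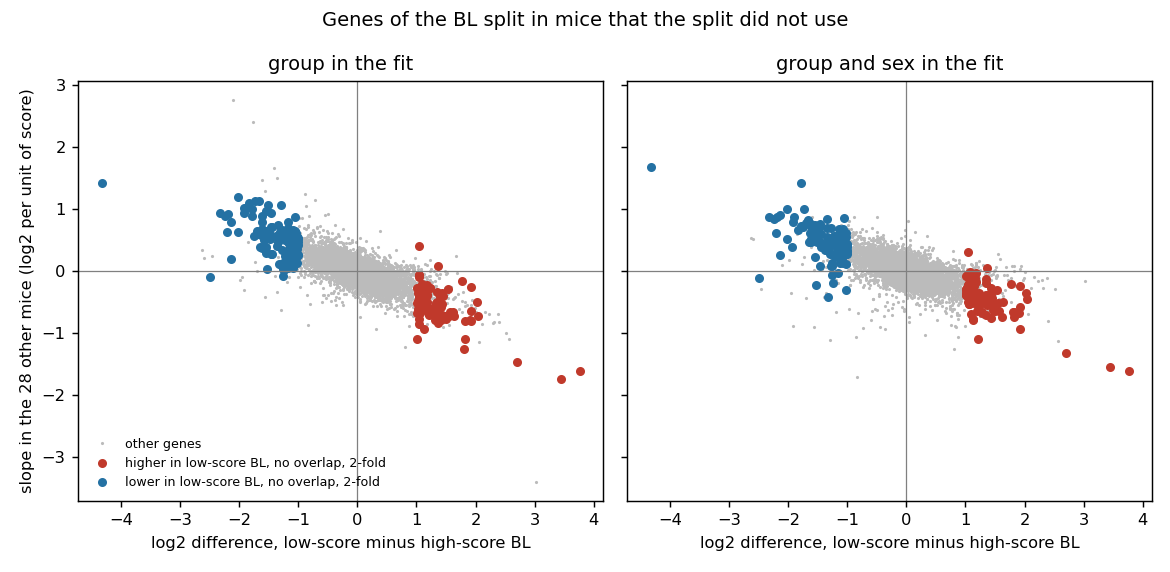
Slope on the score in the 28 other mice (vertical axis, log2 per unit of score) against the log2 difference between low-score and high-score BL mice (horizontal axis), 1 point per gene. Left, with group in the fit; right, with group and sex. Red points are the 97 genes higher and blue points the 118 genes lower in low-score BL by at least 2-fold without overlap.

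Several of the genes described above passed the threshold both without and with sex in the fit, and fewer did in females alone. *Fmod* had a slope of -1.74 ± 0.20 (SE; limma, adjusted p = 3.34e-06) and of -1.55 ± 0.28 with sex in the fit (adjusted p = 0.00666). For *Thbs4* the slopes were similar, -1.62 ± 0.27 and -1.62 ± 0.40, and the second missed the threshold (limma, adjusted p = 0.000429 and 0.0585). *Hhatl* rose with the score by 1.20 ± 0.11 and, with sex, by 1.0 ± 0.15 (limma, adjusted p = 1.98e-07 and 0.00112). *Aqp6* rose by 0.92 ± 0.10 and 0.88 ± 0.15 (limma, adjusted p = 2.17e-06 and 0.00265). *Car4*, *Duox2*, *Iyd* and *Ret* also passed in both fits, with slopes with sex of 0.87, 0.58, 0.36 and 0.68 (limma, adjusted p = 0.0249, 0.00487, 0.0193 and 0.00112). *Tgfbi* and *Itpr3* fell with a higher score in both, with slopes with sex of -0.55 and -0.43 (limma, adjusted p = 0.0301 and 0.00906). In the 21 females alone, a fit chosen after seeing the data, *Hhatl*, *Aqp6*, *Duox2* and *Ret* passed (limma, adjusted p = 0.0231, 0.0324, 0.00306 and 0.00476). *Fmod*, with a slope of -1.19 there, *Thbs4*, *Car4*, *Iyd*, *Tgfbi* and *Itpr3* missed the threshold in females (limma, adjusted p = 0.0564, 0.248, 0.164, 0.0548, 0.111 and 0.0564).

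Among MAPK output genes, 10 of 19 had a negative slope past the threshold and 0 a positive one, and 2 of 19 with sex in the fit. Those 2 were *Dusp5* and *Dusp6*, the phosphatases that overlapped in BL (slopes with sex -0.55 and -0.37; limma, adjusted p = 0.0293 and 0.0401), and both missed it in the 21 females (limma, adjusted p = 0.152 and 0.252). Extracellular matrix genes had 8 of 17 negative slopes past the threshold, and 0 of 17 with sex. Endothelial genes had 6 of 10 positive slopes past the threshold and 2 of 10 with sex, among them *Kdr*, the main VEGF receptor (0.43 ± 0.10 with sex; limma, adjusted p = 0.0341). *Ucp1* had a slope of 1.42 ± 0.44 that missed the threshold (limma, adjusted p = 0.0515). Genes of MHC class II and T cells had 0 slopes past the threshold among 8 and 8.

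In the 10 PTC alone, which are lesions of the same genotype, 64 genes had a negative slope (0.321%) and 357 a positive one (1.79%) by limma. Leaving out 1 PTC gave 28 to 149 and 126 to 423 genes, the lowest of both without M_700. Of the 2-fold genes, 19 of 97 (19.6%) and 69 of 118 (58.5%) passed there, none in the opposite direction. *Thbs4* had a slope of -2.25 ± 0.33 and *Fmod* of -1.85 ± 0.34 (limma, adjusted p = 0.00613 and 0.0169). Of the leukocyte genes that were lower in low-score BL, some passed in PTC and others did not. The slopes were 1.73 ± 0.20 for *Cd209a*, 1.48 ± 0.17 for *Klri1* and 1.35 ± 0.15 for *Gpr141b* (limma, adjusted p = 0.0018, 0.00179 and 0.00151). Of 8 MHC class II genes, 6 had a positive slope past the threshold, and *H2-Ab1* missed it (limma, adjusted p = 0.0749). *Il7r*, *Cd163*, *Lyz2* and *Pax5* also missed it, with slopes of 0.61, 0.37, -0.14 and 0.00 (limma, adjusted p = 0.0751, 0.132, 0.704 and 0.998), as did the immunoglobulin kappa variable segment with 0.55 (limma, adjusted p = 0.507). With sex in the fit, 2 and 35 genes passed the threshold over the whole array in PTC, with age 1 and 5, and with the muscle and adipocyte list means 3 and 51. The PTC mean was nearer to low-score BL than to high-score BL for 87 of the 97 genes and 114 of the 118, and for 12333 of all 19934 genes. BHL *BRAF*(+) was nearer to low-score BL for 85 of the 97, 116 of the 118 and 11391 of all genes. AT *BRAF*(+) was nearer to it for 1, 6 and 6880 genes of the same sets, and AT *BRAF*(-) for 2, 31 and 6909.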

How the data were processed

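Thyroid RNA of 38 mice was measured on Mouse Gene 1.0 ST arrays, 1 per mouse, and lesion, sex and age came from the labels. The labels name *BRAF* status for AT and BHL, and the study describes all BL and PTC as *BRAF*(+). The authors normalized the arrays by RMA, of which the sources used here give no version, and the deposited values are log2 signals of 35556 probe sets. RMA draws all arrays to 1 distribution, so shifts shared by a whole array are removed and a gene's difference between mice is relative to the other genes. The labels name a labelling kit made for arrays of another type. Depth is not defined for arrays, and the number of mice limits the precision. Of the probe sets, 21789 had 1 symbol in the platform annotation, 1621 several and 12146 none listed. Those with several were not named, and 21698 matched a RefSeq gene by Entrez number, with 0 changed symbols. Genes with more than 1 probe set were represented by the brightest on average, giving 19938 genes, 4 of them in the score.

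The members and gene lists were chosen with earlier results of these data known. The BL split was described by means, SD, SE and overlap. Slopes of the score were fitted with lmFit and eBayes (limma 3.58.1, R 4.3.3) with group as a factor, two-sided, with Benjamini-Hochberg adjustment over 19934 genes and a threshold of 0.05. Age and sex were tested exactly in Python 3.11.15 (scipy 1.17.1). The fits and overlap counts were tested on simulated data. Nothing in the labels says that the mice of a group were independent litters. The p-values treat every mouse as independent, and they would be too small if mice of a litter resemble each other. Named genes were the score genes, *Braf*, the 12 largest separated differences each way, the first 3 measured and every separated member of 30 lists, and the 6 largest slopes each way. Alternatives were other score definitions, arrays centred on their medians, filters on flat and weak genes, other covariates and leaving out mice. No promoter of *Tshr* was shown.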

Additional observations from a re-analysis of the deposited data

Results flagged for a closer look

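Among 127 measures checked for a mouse that stands apart from the rest of its group, a few were flagged, all in BL and all listed here. Chance flags about 1 in 20 groups, and the flagged share was no higher than that. *Tg* was lowest in M_530 of low-score BL, at 13.30 with the next mouse at 13.53, and M_530 also had the highest muscle gene mean. *Crabp2*, a retinoic acid binding protein, was 8.78 in M_530 with the next mouse at 6.11, and the retinoid gene mean was 7.33 there with the next at 6.74, so the separation of *Crabp2* is large only through this mouse. *Epcam* was highest in M_414 of low-score BL, at 10.43 with the next at 10.01. *Mki67* was lowest in M_649 of high-score BL, at 5.68 with the next at 6.71. The interferon response mean was 7.36 in M_416 of high-score BL with the next mouse at 6.16.

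For 3 of the genes described above the slope on the score differed between PTC and the 18 non-malignant mice (limma interaction, chosen after seeing the data). The slope in PTC minus that in non-malignant mice was 1.47 for *Klri1* (adjusted p = 0.0476), 1.99 for *Gpr141b* (adjusted p = 0.00843) and 1.29 for *Postn* (adjusted p = 0.0299). Over all 19934 genes, 27 had a higher and 1 a lower slope in PTC by this test, and 1853 had an unadjusted p under 0.05. For *Cd209a* the difference of slopes was 1.61 and missed the threshold (limma interaction, adjusted p = 0.0798).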

How the results depend on the processing

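No paired analysis was possible because mouse numbers are not shared between groups. Of 637 differences of single genes recomputed under other settings, 637 stayed within 1 SD of the reported value. Most of these settings could not have moved a difference that far. The other score definitions kept the same mice in each group. Leaving out so few mice shifts a difference by less than 1 SD in groups of this size. The count of 637 is therefore no evidence that the differences are robust. Every score definition tried gave the same groups. Values below are the percent of the genes tested, higher first. The separated genes (2.99% and 4.17%) came to 13.0% and 17.0% of 1566 genes under the flat filter (204 and 266 genes). Fewer mice overlap less easily: 5.83% and 6.54% in females (1163 and 1303 genes), and, chosen after seeing the data, 7.89% and 7.99% without M_527 and M_530 or with only M_528 kept of the 3 neighbouring mice, 5.69% and 7.03% without M_527 and M_649, 5.85% higher with only M_527 kept, and 6.17% and 7.85% with only M_530 kept. Leaving out 1 BL mouse gave 3.33% to 4.73% higher (4.57% without M_527, 4.73% without M_530) and 4.52% to 5.74% lower.

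In the 28 other mice, negative and positive slopes (3% and 3.63%) came to 0.15% and 0.401% with sex, 1.34% and 1.78% with age, 22.3% and 17.6% under the flat filter, 5.64% and 6.19% among genes with a mean log2 signal of at least 6, and, chosen after seeing the data, 0.1% and 0.426% with sex and age and 0.0301% and 0.431% in the 21 females. The 9 *BRAF*(-) mice gave 0.00502% and 0 (1 gene and 0 genes by limma, with 2240 at an unadjusted p under 0.05). Leaving out 1 mouse gave 1.46% to 4.74% (1.46% without BHL *BRAF*(+) M_958, 1.89% without PTC M_700, 4.74% without PTC M_1002) and 2.37% to 4.22% (2.37% without M_958). In PTC, 0.321% and 1.79% came to 0.01% and 0.176% with sex (2 and 35 genes), 0.00502% and 0.0251% with age (1 and 5), 0.015% and 0.256% with muscle and adipocyte means (3 and 51), and 5.43% and 17.5% under the flat filter. Leaving out 1 PTC gave 0.14% to 0.747% (0.14% without M_358 or M_700, 0.171% without M_884, 0.176% without M_415, 0.186% without M_348, 0.211% without M_686, 0.537% without M_364, 0.747% without M_1002) and 0.632% to 2.12% (0.632% without M_700, 1.18% without M_358). The age difference of -1 month between low-score and high-score BL ranged from -2.95 to 1.30 without 1 mouse, with a changed sign (1.30) without M_1005, and the difference in males from -2 to -1. The cause of these changes was not tested. With 5 mice in each BL group small differences could not be resolved, and weak array signals compress differences.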
